A study of Caenorhabditis elegans with 2 samples.

Results

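Relaxed peaks of a tagged EGL-5 protein lying near transfer RNA (tRNA) genes of Caenorhabditis elegans are described here. They are the peaks of the list made from both replicates together whose summit, the position of highest signal, lay within 500 bp of a nuclear tRNA gene. There were 446 such peaks among the 28619 of that pooled list (1.56%), and 74 of them were also in the authors' list thresholded by the irreproducible discovery rate (IDR). The pooled list was input to IDR and holds peaks and background, so a peak in it is not by itself a significant one. The gene set was all 612 genes of biotype tRNA on the 6 nuclear chromosomes in Ensembl WBcel235, and the RefSeq annotation placed all 612 at the same coordinates and strand. The position of the summit was the only measurement used to choose the peaks, so scores, replicate support and sequence played no part in the choice.

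The samples were whole larvae of the L3 stage and of mixed sex. Their strain, OP54, has the unc-119(ed3) allele on chromosome III together with wgIs54, the insertion targeting egl-5. EGL-5, a Hox protein of the posterior body, was tagged with eGFP, and the DNA bound in chromatin was recovered and sequenced (ChIP-seq). The 2 replicates, labelled biological, form 1 group, with no untagged or input group. Tagged protein in a few cells and weak binding in many cells cannot be told apart in whole animals, and the number of copies of the array is not known here. The 5 highest pooled scores all lay on chromosome III around the egl-5 gene, from 179.2 to 509.8, and none of them is near a tRNA gene.

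Genes for tRNAs are transcribed by RNA polymerase III. Their promoter lies inside the gene and consists of the A box and the B box, which the factor TFIIIC recognises. TFIIIC then places a second factor, TFIIIB, just upstream of the start, and TFIIIB brings in the polymerase. The genes are short, occur in many copies and are scattered over all chromosomes of the worm, with a large number on X.

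The tRNA genes next to 6 of the 20 highest-scoring peaks are shown first, each of a different sequence and with some higher-scoring ones left out, since the position of the summit is read against them below. Each is printed 5′ to 3′ on its own strand from the RefSeq genome WBcel235 (ce11), with matches to the A box and the B box in capitals. The B box was searched as GTTCNANNC and the A box by its core letters near the 5′ end, both on the gene's own strand.
C33G3.t2, lysine, chrX:14063946-14064018, minus strand: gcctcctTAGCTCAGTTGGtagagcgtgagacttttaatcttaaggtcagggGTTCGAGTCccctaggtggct
C04A11.t1, leucine, chrX:13665555-13665673, plus strand: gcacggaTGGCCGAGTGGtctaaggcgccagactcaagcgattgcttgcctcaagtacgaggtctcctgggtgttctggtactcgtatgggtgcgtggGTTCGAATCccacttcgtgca
F46G11.t2, proline, chrX:5801211-5801282, minus strand: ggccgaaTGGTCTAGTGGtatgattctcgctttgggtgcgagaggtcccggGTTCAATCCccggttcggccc
F57F5.t1, isoleucine, chrV:12002176-12002260, plus strand: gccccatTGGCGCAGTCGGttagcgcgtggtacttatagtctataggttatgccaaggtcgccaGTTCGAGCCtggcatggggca
C16B8.t2, proline, chrX:3970096-3970167, plus strand: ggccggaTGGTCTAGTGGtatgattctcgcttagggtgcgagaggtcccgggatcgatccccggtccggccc
C06G1.t1, histidine, chrX:16634830-16634901, minus strand: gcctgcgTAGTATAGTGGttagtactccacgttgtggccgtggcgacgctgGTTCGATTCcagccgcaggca

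The B box was found in 587 of the 612 tRNA genes (95.9%) and the A box in 565 (92.3%). C16B8.t2 is the 1 printed gene without the B box letters. Counted from 1 at the 5′ end of the gene, it differs from F46G11.t2 by A6G, T33A, T53A, A56G and T66C, of which T53A and A56G fall in the B box of F46G11.t2.

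Where the summits fell is shown for the 3 highest-scoring of these 6 peaks, as the summit with 50 bases on either side, read along the strand of the tRNA gene, with bases of the gene in capitals.
Summit near C33G3.t2, chrX:14064025-14064125, minus strand: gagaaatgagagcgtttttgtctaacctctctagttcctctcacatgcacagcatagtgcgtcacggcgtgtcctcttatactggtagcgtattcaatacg
Summit in C04A11.t1, chrX:13665537-13665637, plus strand: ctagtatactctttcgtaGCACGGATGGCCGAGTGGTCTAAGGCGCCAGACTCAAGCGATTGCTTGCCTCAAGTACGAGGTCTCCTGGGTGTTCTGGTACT
Summit near F46G11.t2, chrX:5801283-5801383, minus strand: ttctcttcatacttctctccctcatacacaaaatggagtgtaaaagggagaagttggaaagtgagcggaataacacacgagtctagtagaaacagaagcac
The first summit lay 57 bp and the last 51 bp upstream of the first base of the gene, so neither window reached the gene. The middle summit lay inside the gene, 32 bp after its first base, and 83 bases of its window belong to the gene.

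Summits were concentrated on the tRNA genes themselves and on the bases next to them. Inside tRNA genes there were 110 summits in 45.8 kb, or 2.40 per kb, which is 8.41 times the density over the 6 chromosomes (0.285 per kb). From 1 to 50 bp away there were 115 summits, at 6.60 times that density, and from 51 to 200 bp there were 129, at 2.72 times. From 201 to 500 bp the ratio was 1.08, with an exact Poisson 95% interval of 0.869 to 1.32, and from 501 to 1000 bp it was 1.15. The interval for the gene bodies ran from 6.91 to 10.1. These intervals, like those on shares below, cover counting error only, and no test against chance positions was made. They take summits as independent, although neighbouring peaks can overlap.

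**Figure D1:**
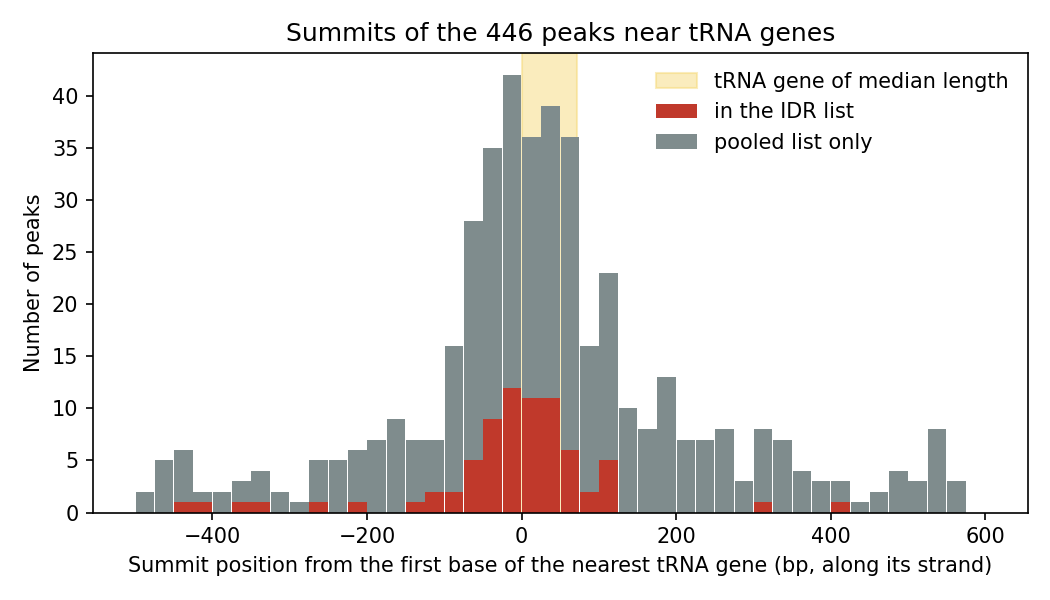
Number of peaks by the position of the summit relative to the first base of the nearest tRNA gene, in bins of 25 bp along the strand of the gene; red marks peaks also in the IDR list, grey the others, and the yellow band a gene of median length, 72 bp. The summits gather over the gene and just upstream of it, and the median lies 21 bp after the first base.

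Each replicate list gave the same order of densities by distance. The list of replicate 1 held 110 summits inside tRNA genes, at 8.02 times its own chromosome-wide density, and the list of replicate 2 held 84, at 6.13 times. From 1 to 50 bp the ratios were 7.12 in replicate 1 and 5.80 in replicate 2. By 201 to 500 bp they had come down to 1.06 and 1.16, with intervals that reach below 1 in both. In both lists the median score also came down with distance, in replicate 1 from 10.1 inside genes to 4.44 at 201 to 500 bp, and in replicate 2 from 12.0 to 7.78.

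**Figure D2:**
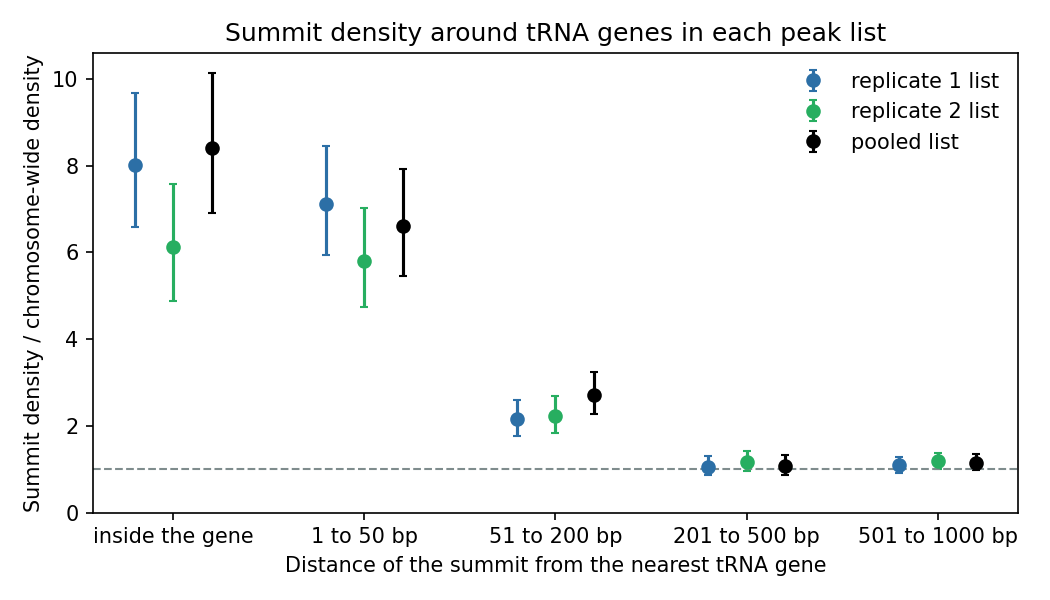
Density of summits by distance from the nearest tRNA gene, divided by the density over the 6 chromosomes, for the lists of replicate 1 (blue) and replicate 2 (green) and for the pooled list (black); bars are exact Poisson 95% intervals and the dashed line marks equal density. In all 3 lists the ratio lies above 5 inside the genes and up to 50 bp away, and near 1 beyond 200 bp.

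Genes for other short RNAs were set beside the tRNA genes in the same way. Inside small nucleolar RNA (snoRNA) genes, which guide the modification of other RNAs, the density ratio was 3.69, and it was 1.79 inside small nuclear RNA (snRNA) genes of the spliceosome. Inside microRNA genes it was 2.11, and inside the very short piRNA genes 0.397. The Poisson interval for tRNA genes, 6.91 to 10.1, did not overlap that of any of these 4 kinds of gene, of which the highest bound was 4.87, for snoRNA genes. This did not hold beside the genes. From 1 to 50 bp away the ratio was 6.60 for tRNA genes (interval 5.45 to 7.92) and 4.09 for snoRNA genes (interval 2.92 to 5.57), which overlap, and from 51 to 200 bp it was 2.72 and 2.47.

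Of the 612 tRNA genes, 411 had a pooled summit within 500 bp (67.2%, exact binomial 95% interval 63.3 to 70.9). Over all 46890 annotated genes the share was 38.2%, a value that includes long genes with more room for a summit. Measured from the 5′ end alone, so that length plays no part, 403 tRNA genes (65.8%) had a pooled summit within 500 bp, where 28.6% of all annotated genes did. The snoRNA genes had 186 of 346 (53.8%), the snRNA genes 33 of 129 (25.6%) and protein-coding genes 6619 of 19973 (33.1%). An IDR summit stood within 500 bp of the 5′ end at 88 tRNA genes (14.4%), where 4.99% of all annotated genes had one. At snoRNA genes it stood at 66 (19.1%), which is above the tRNA share, with intervals that overlap.

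Most tRNA genes with a peak had a single one. One summit lay near 309 genes, 2 near 93 genes, 3 near 8 genes and 4 near 1 gene, and 201 genes had none. Peaks near the same gene can overlap each other and were counted separately. At C04A11.t1, for example, they lay at chrX:13665405-13665768 and chrX:13665604-13665967. Whether such neighbours are separate sites was not tested. In the other direction, 374 peaks lay near a single tRNA gene, 67 near 2 and 5 near 3, so a peak in a cluster of tRNA genes cannot always be given to 1 gene. The gene with 4 peaks was Y119D3B.t1, an isoleucine tRNA gene at chrIII:1218376-1218449, and none of its scores was above 13.8. Its summit closest to the gene, 9 bp upstream, scored 12.9.

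Peaks near tRNA genes had higher scores than the other pooled peaks. The score is the authors' own, in the signal column of the list, and it is compared here only within a list. Its median was 15.3 near tRNA genes, with quartiles at 9.46 and 24.1, and 10.5 for the 28173 other peaks, with quartiles at 7.98 and 16.8. The highest score near a tRNA gene was 79.1, far below the highest of the list, 509.8. By rank, the median peak near a tRNA gene stood at 29.0% from the top of the pooled list, and the median of the others at 50.3%.

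In the IDR list were 74 of the 446 peaks, or 16.6% (interval 13.3 to 20.4), where 8.98% of all pooled peaks were. The IDR list is exactly the 2570 highest pooled scores, all of 30.8 or more, so this share restates the scores and is not a separate measurement. The higher share lay close to the genes. Inside tRNA genes 28 of 110 peaks (25.5%) were in the IDR list, and from 1 to 50 bp away 28 of 115 (24.3%). From 51 to 200 bp the count was 10 of 129 (7.75%), and from 201 to 500 bp it was 8 of 92 (8.70%), shares whose intervals include the 8.98% of the whole list. Of the 74 IDR peaks, 56 (75.7%) thus had their summit in a tRNA gene or within 50 bp of one.

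**Figure D3:**
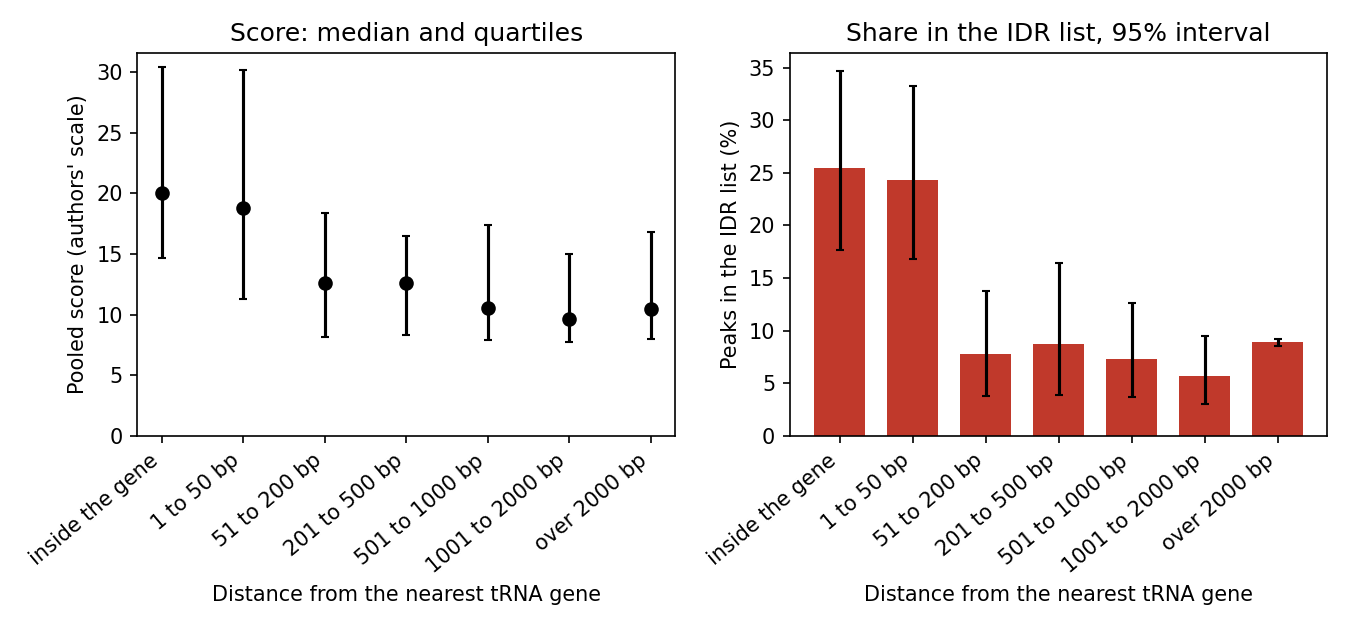
Left, median and quartiles of the pooled score, and right, share of peaks in the IDR list with its exact binomial 95% interval, both by distance of the summit from the nearest tRNA gene. Scores and shares are high inside the genes and up to 50 bp away, with median scores of 20.01 and 18.8, and lower farther away. The median score is 12.6 in both bins from 51 to 500 bp and from 9.65 to 10.5 in the bins beyond.

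Upstream and downstream sides differed. Upstream of the gene lay 194 summits (43.5%), inside it 110 (24.7%) and downstream 142 (31.8%). Within 50 bp of the gene there were 77 upstream and 38 downstream. Of the upstream peaks 37 (19.1%, interval 13.8 to 25.3) were in the IDR list, and of the downstream peaks 9 (6.34%, interval 2.94 to 11.7), so the intervals did not overlap. The downstream interval includes the 8.98% of all pooled peaks. Upstream summits also lay closer to the gene, at a median of 66.5 bp, where downstream summits lay at 126.5 bp. Side and distance were not separated for the IDR share.

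The 4 highest scores near tRNA genes all lay on X. At C33G3.t2, a lysine tRNA gene, the peak at chrX:14063893-14064256 scored 79.1 and ranked 135 in the pooled list. It scored 40.9 in replicate 1 and 37.9 in replicate 2. It stood at 0.277% from the top of the list of replicate 1, where it was the highest of all peaks near tRNA genes, and at 1.29% from the top in replicate 2.

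At F41D9.t3, an asparagine tRNA gene in an intron of sulp-3, which encodes an anion transporter, the peak at chrX:8404241-8404604 scored 75.2. Its replicate scores were 24.8 in replicate 1 and 48.4 in replicate 2, and its summit lay 76 bp upstream. The peak at M02F4.t2, a glutamate tRNA gene, at chrX:3035902-3036265, scored 73.6, with 33.7 in replicate 1 and 43.8 in replicate 2. Its summit lay 37 bp upstream in intergenic sequence. At C04A11.t1, the leucine tRNA gene printed above, the peak scored 66.4, with 29.0 in replicate 1 and 32.8 in replicate 2.

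Of the 20 highest peaks, 15 lay on X, 14 had their summit upstream of the gene and 6 inside it. The peak with the summit farthest away was that of T02G6.t1, a serine tRNA gene on chromosome I, more than 300 bp upstream and in an intron of vab-10, which encodes a spectraplakin. It scored 58.5. Next by score came F46G11.t2, a proline tRNA gene (53.96), ZK899.t1, another of the same sequence (53.95), and C28G1.t1, a glutamate tRNA gene (53.7). The ZK899.t1 summit, at 3 bp after the first base, lay closest to a gene's start among the 20. The order of these proline genes differed between the lists. In replicate 1 F46G11.t2 scored 32.0 and ZK899.t1 17.7, and in replicate 2 they scored 25.7 and 39.9.

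Promoters of protein-coding genes overlapped with a minority of these peaks. The C28G1.t1 summit fell in the promoter windows of sec-15, which encodes a subunit of the exocyst, and of C28G1.2. That of F57F5.t1 (51.8), an isoleucine tRNA gene, fell in those of gcy-33, a guanylate cyclase gene, and cpr-9, a gene for a cathepsin B-like protease. The summits at C04E7.t1 (49.9), W09G10.t3 (49.4) and R04A9.t1 (45.9) fell in the windows of sor-3, of the C-type lectin gene clec-126 and of ZK1193.2. The other 15 of the 20 were outside promoter windows.

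Among the rest of the 20, C16B8.t2, the proline tRNA gene without the B box letters, had a peak scoring 50.9 with its summit 50 bp into the gene. Another proline tRNA gene, C16B8.t3, also lies within 500 bp of that summit, so the peak is near both. The histidine tRNA gene C06G1.t1 had 50.3, with its summit 13 bp upstream. W02H3.t1, for leucine, had 49.2 and R04E5.t6, for glycine, 48.3. The serine tRNA genes K02A4.t1, C53C7.t2 and K11H3.t2 had 46.9, 46.5 and 45.8, the last in an intron of twk-48, a potassium channel gene. C06G4.t1, for phenylalanine, had 46.4 with a summit 334 bp upstream. All 20 were in both replicate lists.

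At the other end, the 3 lowest scores were 6.49 at K12H4.t1, 6.50 at K08E7.t1 and 6.55 at F18G5.t2. None of these 3 overlapped a peak of replicate 2. Just inside the limit of 500 bp lay peaks at 498 bp from F55F3.t2 (17.2), 498 bp from M163.t2 (12.9) and 492 bp from T03G6.t1 (7.93). Just outside it lay peaks at 504 bp from C06E4.t1 (26.6), 507 bp from K02D3.t1 (32.7, in the IDR list) and 516 bp from C13B4.t1 (7.58).

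A larger share of peaks near tRNA genes was found in both replicate lists. Both lists held an overlapping peak, by at least 1 bp, for 302 of the 446 peaks (67.7%, interval 63.2 to 72.03), where the share over all pooled peaks was 51.4%. A further 79 overlapped a peak of replicate 1 only and 58 of replicate 2 only, and 7 overlapped none. All 74 IDR peaks near tRNA genes were in both lists. Of the other IDR peaks, 98.9% were. Support thus went with the score, which was higher near tRNA genes, and the part of the score in this share was not tested. Inside tRNA genes the share with both was 75.5%, from 1 to 50 bp it was 74.8%, and from 201 to 500 bp it was 52.2%.

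Neighbouring pooled peaks can overlap the same replicate peak under that rule, and 96 of the 302 shared both of their replicate peaks with another peak near a tRNA gene. With each replicate peak given only to the pooled peak of nearest summit, a rule chosen after seeing the data, 240 of the 446 peaks (53.8%, interval 49.1 to 58.5) had their own peak in both lists, and 42.9% of all pooled peaks did. By distance that share was 67.3% inside tRNA genes, 65.2% from 1 to 50 bp, 44.2% from 51 to 200 bp and 37.0% beyond. Of the 74 IDR peaks, 71 had their own peak in both lists.

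Across these 240 peaks, Spearman's rho between replicate scores was 0.522, and across the 12031 other such peaks 0.531. All sites share the same 2 libraries, so these values describe the lists. Ranked within its own list, the peak stood higher in replicate 1 for 159 of the 240 and higher in replicate 2 for 81. For the other peaks the counts were 6050 and 5979. By overlap the widest gaps were at F55F3.t2, at 96.1% from the top in replicate 1 and 18.1% in replicate 2, and at F33D11.t2, an arginine tRNA gene, at 9.06% and 95.4%. With its own peak in each list F33D11.t2 stood at 59.1% in replicate 1, so most of its gap came from a neighbour's peak, whereas F55F3.t2 did not move. The replicate scores of the 20 highest peaks were the same under both rules. The replicate numbers are those of the ce11 lists. At equal rank the scores of replicate 1 on ce11 differed from those of replicate 2 on ce10 by a median of 0.218%, and from those of replicate 1 on ce10 by 39.3%, so the numbers are exchanged between builds and their biological sample is not settled.

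**Figure D4:**
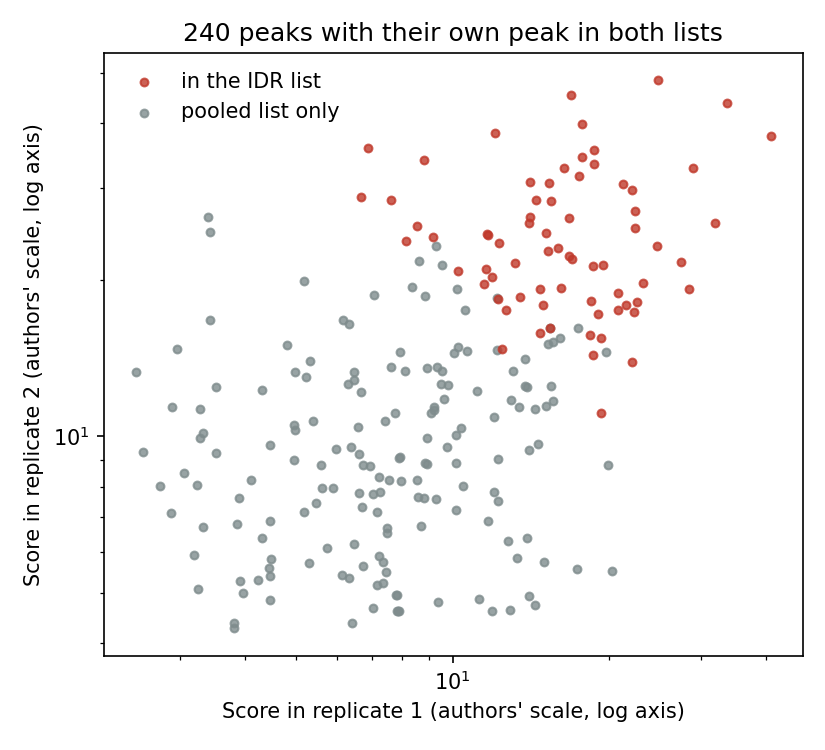
Score in replicate 1 against score in replicate 2, both on log axes, for the 240 peaks near tRNA genes with their own peak in both lists; red points are in the IDR list and grey points are not. The highest score was 40.9 in replicate 1 and 48.4 in replicate 2, and the IDR peaks occupy the upper right.

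Most strong peaks near tRNA genes lay outside the promoters of protein-coding genes. Promoter windows reach 1000 bp before and 200 bp past the starts of protein-coding transcripts. They held 127 of the 446 summits (28.5%, interval 24.3 to 32.9), where the share over all pooled peaks was 34.8%. Among the IDR peaks the gap was wide, with 19 of 74 (25.7%) near tRNA genes and 1370 of 2496 (54.9%) elsewhere. Of the summits outside promoter windows, 55 of 319 (17.2%) near tRNA genes were in the IDR list, against 6.14% of the others. Inside promoter windows the shares were 14.96% near tRNA genes and 13.9% elsewhere. In all, 55 of the 1181 IDR peaks outside promoter windows (4.66%) lay within 500 bp of a tRNA gene. Of all pooled peaks outside promoter windows, 319 (1.71%) did. The sequence within 500 bp of tRNA genes is 0.571% of the chromosomes, with promoter windows included on both sides of that share.

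The remaining summits near tRNA genes fell in introns (138, 30.9%), intergenic sequence (149, 33.4%) and exons (32, 7.17%). Of the tRNA genes, 290 lay within a protein-coding gene and 322 outside. A pooled summit stood near 67.2% of the first and 67.1% of the second. By strand the share was 65.3% on the host's strand and 69.9% on the opposite strand, and it was 69.9% with another tRNA gene within 1000 bp and 65.4% without one, with overlapping intervals in both cases.

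Chromosome X held 194 of the peaks near tRNA genes (43.5%), but it also holds 276 of the 612 tRNA genes (45.1%). It holds 22.3% of all pooled peaks and 17.7% of the sequence. A pooled summit stood near 68.8% of the tRNA genes on X and near 65.8% of those on the autosomes, with overlapping intervals. Among autosomes the share ran from 48.7% on V (38 of 78) to 80.7% on II (46 of 57), whose intervals, 37.2 to 60.3 and 68.1 to 89.95, did not overlap. These chromosomes were picked as the ends of the order. All pooled peaks were also sparser on V (221 per Mb) than on II (288 per Mb).

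For IDR peaks X stood higher. An IDR summit stood near 54 of 276 tRNA genes on X (19.6%, interval 15.1 to 24.7) and near 35 of 336 on the autosomes (10.4%, interval 7.36 to 14.2), where 6.67% of all annotated genes had one. As a share of peaks, 43 of 194 on X (22.2%) and 31 of 252 on the autosomes (12.3%) were in the IDR list. The other pooled peaks had 9.06% on X and 8.80% on the autosomes. Within 50 bp of the gene the shares were 30.5% on X and 20% on the autosomes, and their intervals overlapped. Fewer peaks near tRNA genes lay in promoter windows on X, 23.7% against 32.1% on the autosomes, and outside promoter windows the shares within 50 bp were 30.5% and 18.4%.

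Genes for each of the 20 standard amino acids had peaks. Of the 20 standard amino acids, the share of genes with a pooled summit within 500 bp was highest for valine (25 of 31, 80.6%), glutamate (32 of 41, 78.0%) and serine (30 of 39, 76.9%). It was lowest for tyrosine (7 of 19, 36.8%), cysteine (5 of 13, 38.5%) and tryptophan (5 of 12, 41.7%). The intervals for valine and tyrosine, 62.5 to 92.5 and 16.3 to 61.6, did not overlap, and these ends of the order were picked from 20 shares. The 67.2% of all tRNA genes lies within the valine interval and above that of tyrosine. Cysteine tRNA genes had no IDR summit, which with 13 genes allows a share of up to 24.7%. Alanine tRNA genes had the highest share with an IDR summit, 9 of 34 (26.5%), followed by serine with 9 of 39 (23.1%). Their intervals, 12.9 to 44.4 and 11.1 to 39.3, both include the 14.5% of all tRNA genes, and 7 IDR peaks had an alanine tRNA gene as their nearest. The single selenocysteine tRNA gene had 2 peaks, both below the IDR list.

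**Figure D5:**
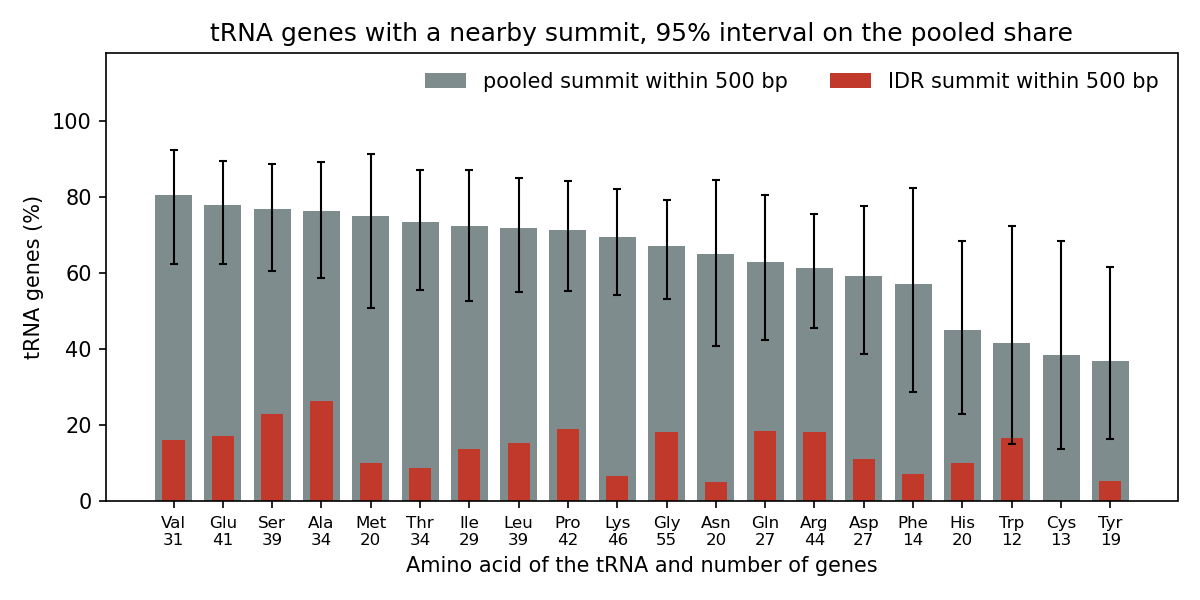
Share of tRNA genes with a pooled summit (grey, with its exact binomial 95% interval) and with an IDR summit (red) within 500 bp, by amino acid, with the number of genes under each name. The pooled share runs from 80.6% for valine to 36.8% for tyrosine, and most intervals overlap.

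Identical tRNA genes differed in their peaks. The 612 genes have 200 distinct sequences, and 469 genes have an identical copy elsewhere. In each of the 20 families of 10 or more identical copies some genes had a peak within 500 bp and others had none, and the share with a peak ran from 41.7% to 90.9%. Over all 317 genes of these families it was 70.0%, and over all tRNA genes 67.2%. With such shares, finding both kinds of gene in a large family says little by itself. Over all peaks nearest to the genes of such a family, the highest score was from 2.55 to 10.9 times the lowest. These ratios also hold spread within a gene, since a gene can have more than 1 peak. They include peaks up to 500 bp away, and no pooled peak scored below 6.46. The lowest score of the lysine family of 25 copies, 6.50, was at K08E7.t1, which also had a peak scoring 28.3. The proline family of 24 copies that includes F46G11.t2 and ZK899.t1 had a peak near 18 genes. The 11 peaks whose nearest tRNA gene was in that family scored from 7.05 to 53.96. Genes with an identical copy had a peak in 69.9% of cases (interval 65.6 to 74.1), and genes whose sequence occurs once in 58.0% (interval 49.5 to 66.2). How reads from identical copies were placed is not given in the sources used here, and its part in these values was not tested.

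Sequence at the summits was compared within 50 bp on either side, on both strands. The B box letters were in 121 of the 446 windows (27.1%), where 3.95% of all pooled windows held them. Among summits inside tRNA genes they were in 83.6%, upstream of the gene in 3.61%, and downstream in 15.5%, so the count follows the position of the gene. Median GC content was 51.5% for summits inside tRNA genes, 45.5% from 1 to 50 bp and 38.6% from 51 to 200 bp, beside 39.6% for the other pooled peaks. GC content moved with the score over these distances, and its part in the scores was not tested.

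Short motifs were searched in the same windows. The repeat GAGAGA was in 58 windows (13.0%, interval 10.03 to 16.5), and in 12.2% of all pooled windows. Among IDR peaks it was in 19 of 74 (25.7%) near tRNA genes and in 26.9% elsewhere. It was in 4.55% of windows with the summit inside a tRNA gene and in 17.4% of those 1 to 50 bp away. TTTATG, a core of posterior Hox sites, was in 37 windows (8.30%, interval 5.91 to 11.2), and in 9.28% of all pooled windows. The E-box CAGCTG was in 6 windows (1.35%), and in 2.76% of all pooled windows. The letters searched do not overlap with each other.

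Peaks near snoRNA and snRNA genes were taken as a comparison set. They numbered 274, and 2 peaks were near both kinds of gene. Their median score was 17.4, where that near tRNA genes was 15.3, and 27.7% of them were in the IDR list, where 16.6% were near tRNA genes. They lay in promoter windows in 38.7% of cases and on X in 5.47%, where peaks near tRNA genes had 28.5% and 43.5%. Outside promoter windows the IDR shares were 17.2% near tRNA genes and 18.5% near snoRNA and snRNA genes. Inside promoter windows they were 14.96% near tRNA genes and 42.5% near snoRNA and snRNA genes.

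Genes of the machinery that makes and matures tRNAs were examined at their own promoters. Of 16 genes for RNA polymerase III and its factors, 8 had a pooled summit in the promoter window (50%), where 40.1% of protein-coding genes did, and 1 had an IDR summit, where 8.92% did. That gene was rpac-19, for a subunit shared with RNA polymerase I, with a score of 43.3. The gene for a TFIIIC subunit, tftc-1, had 20.9, and mafr-1, whose product represses the polymerase, had 19.8. No pooled summit stood at brf-1, for a TFIIIB subunit, or at tbp-1, for the TATA-binding protein. Of 17 tRNA maturation genes found among 20 symbols, 11 had a pooled summit and 3 an IDR summit, at xpo-3 (43.1), metl-1 (37.4) and mtcu-2 (33.5). The tRNA ligase gene rtcb-1 had 22.9.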

How the data were processed

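Peak lists in narrowPeak form were deposited for each of the 2 replicates, for both together, and after IDR thresholding. Per the file headers of the accompanying notes, the first 3 hold peaks and background, were made from the ChIP alignments and a control alignment, and were the input to IDR. For aligner, peak caller, versions, IDR threshold and read depth: not given in the sources used here. The score in the deposited lists has a scale set by the authors' caller and was used only within a list. The deposited −log10 q-value had a median of only 0.950 over the 446 peaks. It reached its maximum, 3.54, in 53 of them and was not used for ranking. Every peak near a tRNA gene had the same width, 364 bp. Only ce11 positions were used, and ce10 lists served to compare scores by rank.

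Distances ran from the summit to the tRNA gene interval (Ensembl release 115, WBcel235), amino acids came from RefSeq, and sequences from the RefSeq genome. Shares have exact binomial (Clopper-Pearson) 95% intervals and densities exact Poisson ones. With 1 group of 2 replicates no test was made, and separate cultures are not stated. Functions were tested on simulated data. Python 3.11.15, pandas 2.3.3, NumPy 2.4.6 and SciPy 1.17.1 were used. Named peaks were the 20 highest, 3 lowest, 3 on each side of the limit and the widest rank gaps. Printed sequences follow the order of score, 1 for each distinct tRNA gene sequence, leaving out those also found on chromosome I. The peaks and gene lists were chosen with earlier results of these data known. The distance bins, the letters of the A box, the split of X by distance, the densities per list, exclusive replicate matching and the comparison of F46G11.t2 with C16B8.t2 were chosen after values had been seen.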

Additional observations from a re-analysis of the deposited data

How the results depend on the processing

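No paired analysis was possible because the study has 1 group and no test was made. Of 79 values recomputed under an alternative, 52 stayed within the interval of the reported value (counts within 1.5 times) and 27 moved. In all, 0 changed direction, but most are counts or shares, which have no direction to change. The median signed distance stayed positive. Its interval reached below 0 without replicate 1 (-6 to 30) and with distance taken from the 5′ end (-2 to 27). In the 7 alternatives that change the peaks or the window, peaks near tRNA genes kept a higher median score and a higher IDR share than the other peaks. Windows of 200 and 1000 bp gave 56.2% and 75.8% of tRNA genes with a peak, score differences of 6.27 and 3.70 where the reported one was 4.80, density ratios of 4.54 and 2.02 where the reported one was 2.73, and B box shares of 33.6% and 20.6%. The higher-scoring part of the pooled list gave 51.3% of genes, a score difference of 2.52 and a density ratio of 3.82. Support in both replicates was 82.7% there and the B box share 32.4%. Its IDR share was 23.7% near tRNA genes and 17.8% for the other peaks, beside 16.6% and 8.86% as reported. Both shares rise in that part because the IDR list is the top of the pooled list. Without promoter windows 51.5% of genes had a peak. Leaving out replicate 1, then replicate 2, gave 61.8% and 69.9% of genes and density ratios of 2.37 and 2.58. Score differences were 2.40 and 2.65 on the scales of the single lists, and B box shares were 22.2% and 27.4%. IDR shares, there counted by overlap with an IDR peak, were 22.2% and 20.6% near tRNA genes. For the other peaks they were 10.1% and 9.78%. Support was 56.5% with an overlap of at least 50% of each peak, 53.8% with each replicate peak given to 1 pooled peak (chosen after seeing the data), the promoter share was 18.2% with a narrower window, and motifs within 100 bp gave 23.1% for GAGAGA and 52.7% for the B box.

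Support in both replicates has no value with 1 replicate left out. Read depth is unknown, so a tRNA gene without a peak is not shown to lack binding. The control sample was not analysed here, and its signal at tRNA genes was not tested.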
